A study of Mus musculus with 6 samples.

Results

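Adamts8 and 8 related secreted proteases, Adamts1, Adamts2, Adamts4, Adamts5, Adamts9, Adamts10, Adamts15 and Adamts20, were followed in mouse gastrocnemius, a mixed muscle of the lower leg. They were taken from the gene table by symbol and are 9 of its 43346 genes, and 9 of the 19 ADAMTS protease genes it lists. Adamts8 was singled out because it was among the genes of smallest p in the comparison of knockout with vehicle muscle, and the others were added as its relatives. Values of that comparison for these 9 genes are therefore given as a description, without a test. The knockout group was 3 male Vdrfl/fl.actin iCre mice treated with tamoxifen (100 mg/kg in 75 microliters of corn oil with 10% ethanol, for 5 days from the age of 6 months). The vehicle group was 3 male mice of the same genotype and age given the oil and ethanol alone. All were fed a diet with vitamin D3 at 3.4 IU/g and 0.81% calcium, and muscle was taken after tests of glucose tolerance and strength that were made 10 days after the injections. All 6 mice carried loxP sites around exon 3 of Vdr, which encodes the vitamin D receptor, and the ACTA1-cre/Esr1* transgene, which supplied a tamoxifen-inducible Cre driven in skeletal muscle. Cre activity, deletion and tamoxifen exposure came together in the knockout group and cannot be told apart, because tamoxifen-treated mice without Cre were not analysed here.

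ADAMTS proteins are secreted zinc-dependent proteases that carry thrombospondin type 1 repeats and are made as proforms, which convertases such as furin can cut. One set, to which Adamts1, Adamts4, Adamts5, Adamts8, Adamts9, Adamts15 and Adamts20 belong, cleaves large chondroitin sulphate proteoglycans such as versican and aggrecan. Adamts2 removes the amino-terminal propeptide from fibrillar procollagens, and Adamts10 binds fibrillin microfibrils. In skeletal muscle the versican-rich matrix around myoblasts is cleared by such proteases as the cells fuse, and Adamts5 and Adamts15 have been linked to that step in mouse cells.

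Counted reads per library ran from 30486874 to 39909535, and 15583 genes passed the filter on low counts, all 9 proteases among them. Fast-fibre markers made up 115200 to 252300 CPM (the count relative to library size, scaled by TMM factors) in knockout and 210700 to 239300 CPM in vehicle libraries, with 2 of 12 higher in estimate. The 5 bone and cartilage markers summed to 0.55 to 0.727 CPM in knockout and 0.261 to 0.743 CPM in vehicle libraries, with Ibsp at 0. Vdr itself had 52, 27 and 40 reads in knockout and 46, 48 and 61 reads in vehicle libraries, which overlap, and a gene-level count does not resolve the floxed exon. Slow-fibre markers set libraries apart: their 10 genes summed to 6201, 32830 and 10350 CPM in knockout replicates 1, 2 and 3, and to 10160, 1483 and 1233 CPM in vehicle replicates 1, 2 and 3, and 10 of 10 had a higher estimate in knockout. With edgeR's quasi-likelihood test and Benjamini-Hochberg adjustment, 0 of 15583 genes (0%) had an adjusted p below 0.05, and 1159 genes (7.44%) had an unadjusted p below 0.05. DESeq2, run as an alternative, called 109 genes (0.699%).

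Adamts8, a proteoglycan-cleaving member first described as an inhibitor of blood vessel growth, was weakly expressed in vehicle muscle and more abundant in each knockout library. It had 78, 392 and 399 reads in knockout replicates 1, 2 and 3, against 42, 34 and 36 reads in vehicle replicates 1, 2 and 3. Scaled to library size these were 2.27, 11.3 and 10.7 CPM in knockout and 1.30, 0.932 and 0.939 CPM in vehicle libraries. The groups did not overlap, but knockout replicate 1 lay much nearer to the vehicle libraries than to the other knockout libraries. The means were 8.09 ± 5.05 CPM in knockout and 1.06 ± 0.211 CPM in vehicle muscle (SD, n = 3 each), a difference of 2.94 on the log2 scale (SE 0.56, 95% interval 1.67 to 4.20) and a ratio of 7.65 between the means. Leaving out any 1 library kept the estimate between 2.61 and 3.38. Because Adamts8 was chosen on this comparison, the estimate may be too large, and nothing is read from its interval or that range. In bulk muscle, more cells of a type that makes the transcript and more transcript per cell cannot be told apart.

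Adamts15, which also cleaves versican, is the chromosomal neighbour of Adamts8 and was the other protease without overlap between the groups. It had 254, 357 and 187 reads in knockout replicates 1, 2 and 3, against 110, 121 and 85 reads in vehicle replicates 1, 2 and 3. In CPM this was 7.39, 10.3 and 4.995 in knockout and 3.41, 3.32 and 2.22 in vehicle libraries. Knockout replicate 1, the lowest of its group for Adamts8, was in the middle of it for Adamts15, and knockout replicate 3 was the lowest. On the log2 scale knockout exceeded vehicle by 1.35 (SE 0.32, 95% interval 0.64 to 2.06). Of the 9 proteases, 2 lay wholly above the vehicle libraries and 0 wholly below, where 5.83% of all tested genes lay above and 6.48% below. Since Adamts8 was chosen on this comparison, nothing is read from that count.

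In the deposited mm10 coordinates Adamts15 spans chromosome 9 from 30899155 to 30922452 and Adamts8 from 30942562 to 30963838. GENCODE places Adamts15 on the minus and Adamts8 on the plus strand, so they are transcribed away from each other across 20109 bases in which the table lists 0 other genes. On the far side of Adamts8 lies Zbtb44, a zinc finger protein gene that starts at 31030644 and was picked after its values were seen. Zbtb44 averaged 34.1 ± 3.71 CPM in knockout and 34.3 ± 1.24 CPM in vehicle muscle (SD, n = 3 each), a log2 fold change of -0.0070 (SE 0.15). Genes between it and Adamts8, and those on the far side of Adamts15, are not described here. Adamts1 and Adamts5 form another neighbouring pair, on chromosome 16 from 85793827 to 85803113 and from 85858170 to 85901125, both on the minus strand, and their estimates had opposite signs.

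**Figure D1:**
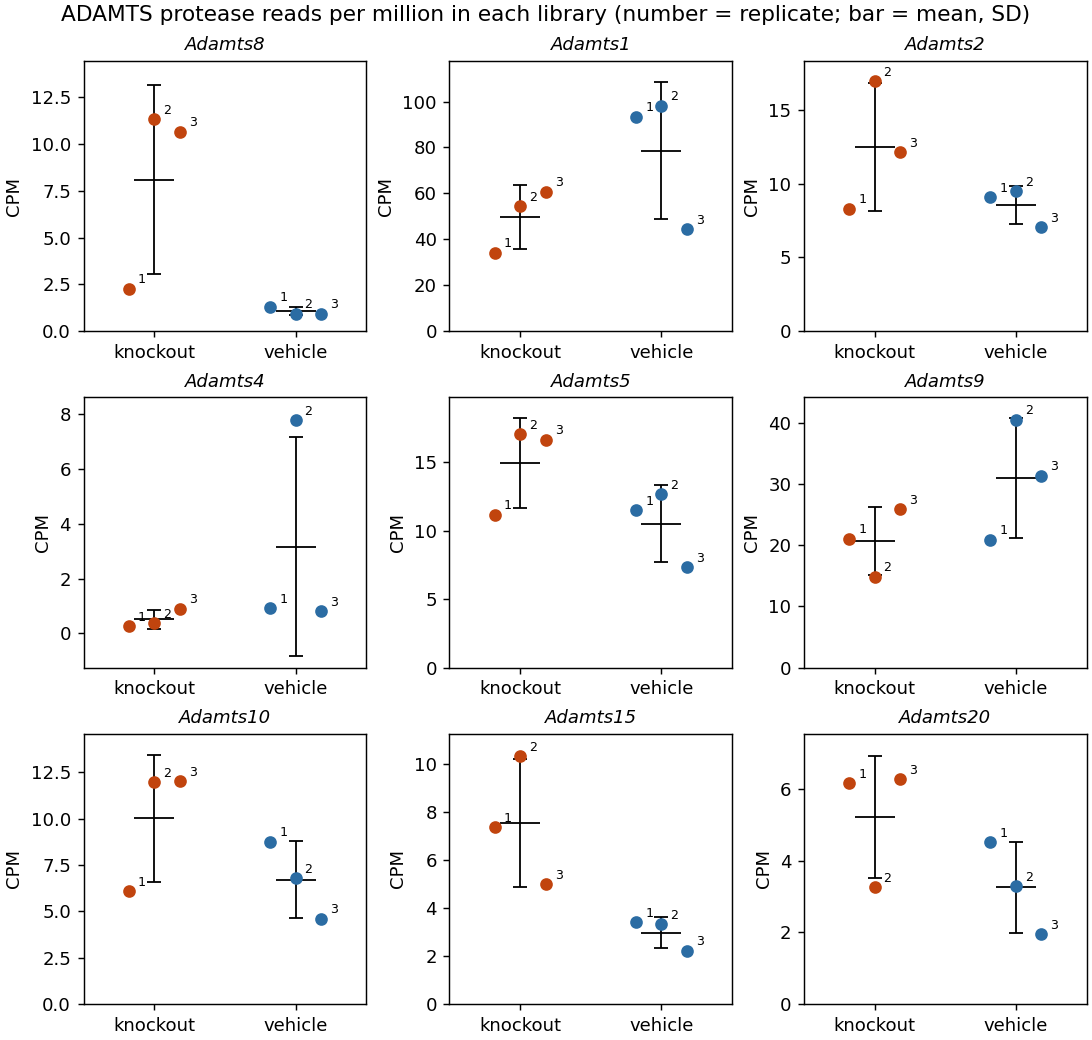
CPM (vertical axes from 0 or just below, scaled per panel) of each protease in the 3 knockout and 3 vehicle libraries; points are libraries marked with their replicate number, bars the mean and SD. Adamts8 lay between 2.27 and 11.3 CPM in knockout and between 0.932 and 1.30 CPM in vehicle libraries, and the groups also stayed apart for Adamts15, while they overlapped for the other 7 genes.

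Adamts1, a proteoglycan-cleaving protease expressed by blood vessels and stroma and required for ovulation in mice, was by far the most abundant of the 9 per length. It had 1174, 1882 and 2276 reads in knockout replicates 1, 2 and 3, against 3013, 3580 and 1705 reads in vehicle replicates 1, 2 and 3. Vehicle replicate 3 lay below knockout replicates 2 and 3, so the groups overlapped. Adamts1 averaged 49.8 ± 13.9 CPM in knockout and 78.6 ± 29.7 CPM in vehicle muscle (SD, n = 3 each), with a log2 fold change of -0.66 (SE 0.32, 95% interval -1.38 to 0.064). Its neighbour Adamts5, the main aggrecan-cleaving enzyme of mouse cartilage, had 384, 590 and 624 reads in knockout and 371, 463 and 281 reads in vehicle replicates 1, 2 and 3. Knockout replicate 1 lay within the vehicle range, at 11.2 CPM, and Adamts5 had an estimate of 0.51 (SE 0.25, 95% interval -0.056 to 1.08).

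Adamts4, an aggrecan-cleaving enzyme that is induced by inflammatory signals in cartilage, stood out in 1 vehicle library. It had 9, 13 and 34 reads in knockout replicates 1, 2 and 3, against 30, 283 and 31 reads in vehicle replicates 1, 2 and 3. Vehicle replicate 2 stood at 7.76 CPM, and the other 5 libraries lay between 0.262 and 0.929 CPM. The log2 fold change was -2.60 (SE 0.96), and -0.76 (SE 0.65) without vehicle replicate 2. Adamts9, a widely expressed protease that is essential in mouse embryos, was also highest in vehicle replicate 2. It had 726, 513 and 972 reads in knockout and 676, 1481 and 1203 reads in vehicle replicates 1, 2 and 3, with a log2 fold change of -0.59 (SE 0.27, 95% interval -1.20 to 0.028), and -0.36 without vehicle replicate 2. Adamts20, the closest relative of Adamts9, known for the belt of white fur in mice that lack it, had 212, 113 and 235 reads in knockout and 146, 120 and 75 reads in vehicle replicates 1, 2 and 3. Knockout replicate 2 was the lowest of its group for both relatives, and the groups overlapped for both. The estimate for Adamts20 was 0.69 (SE 0.37, 95% interval -0.14 to 1.51).

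The remaining pair act on other matrix fibres. Adamts2, whose loss in humans causes a form of fragile skin, had 285, 585 and 454 reads in knockout and 293, 346 and 270 reads in vehicle replicates 1, 2 and 3. The groups overlapped through knockout replicate 1, and the log2 fold change of 0.55 (SE 0.27) was 0.26 without knockout replicate 2. Adamts10, mutated in the human connective tissue disorder Weill-Marchesani syndrome, had 209, 414 and 450 reads in knockout and 283, 248 and 176 reads in vehicle replicates 1, 2 and 3. Again knockout replicate 1 lay inside the vehicle range, and the estimate was 0.58 (SE 0.32, 95% interval -0.14 to 1.30). In all, 6 of the 9 proteases had a higher estimate in knockout and 3 a lower one, where 52.9% of all tested genes had a higher one.

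**Figure D2:**
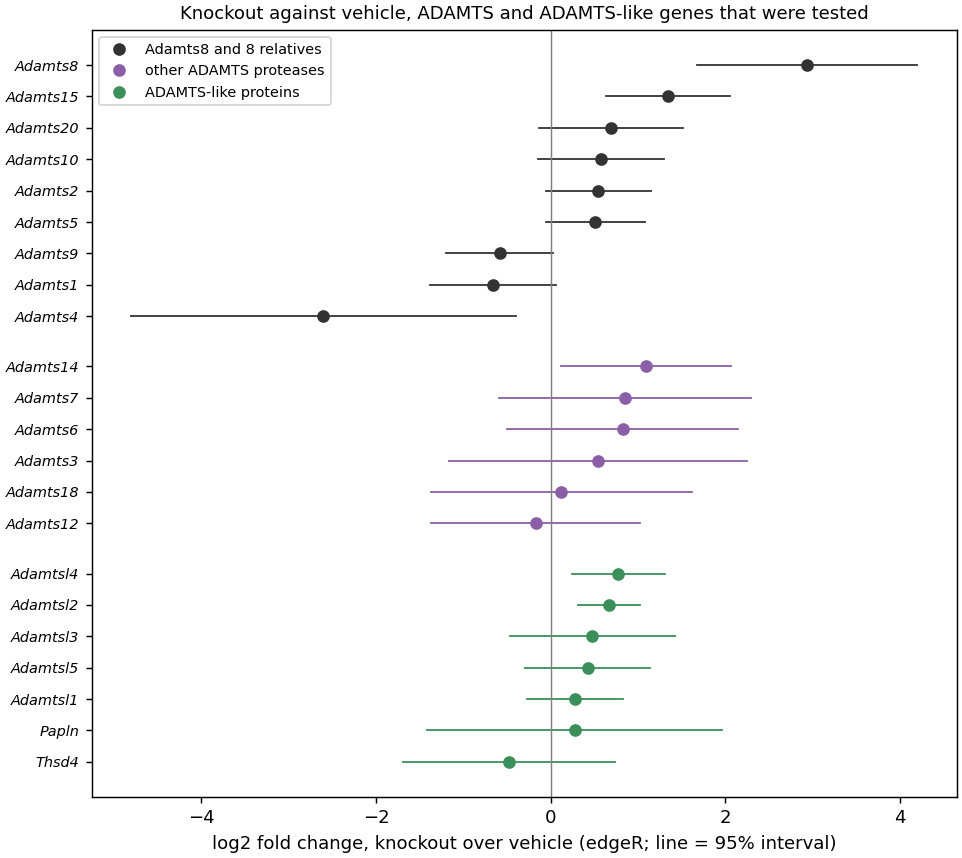
Log2 fold change of knockout over vehicle (horizontal axis, edgeR) with its 95% interval for Adamts8 and 8 relatives, the 6 other ADAMTS proteases that passed the filter and the 7 ADAMTS-like proteins. Adamts8 stands at 2.94 and Adamts4 at -2.60, and the others lie between -0.66 and 1.35. The interval of Adamts8 is a description only, as the gene was chosen on this comparison.

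Levels of the 9 genes were compared per length, in FPKM as deposited, which divides each count by gene length and library total. Over the 6 libraries Adamts1 had the highest mean, 12.1 ± 4.80 FPKM (SD, n = 6), and its lowest library, at 5.87 FPKM, was above the highest of any other. Adamts9 followed at 2.05, then Adamts5 at 1.60, Adamts10 at 1.57, Adamts2 at 1.15, Adamts8 at 1.06, Adamts15 at 0.911, Adamts20 at 0.472 and Adamts4 at 0.378 FPKM. Below Adamts1 the ranges of each gene and the next in this order overlapped, so no neighbours in it were separated by these libraries. Farther apart, the lowest libraries of Adamts9, Adamts5 and Adamts10, at 1.34, 0.870 and 0.809 FPKM, lay above the highest of Adamts20, at 0.742 FPKM. By group means Adamts8 was number 4 of the 9 in knockout muscle, at 1.90 ± 1.27 FPKM, and number 9 in vehicle muscle, at 0.222 ± 0.0432 FPKM (SD, n = 3 each). Its rank varied between libraries: in knockout replicate 1, at 0.448 FPKM, it lay above Adamts4 alone. Adamts4 lay below Adamts8 in vehicle replicates 1 (0.186 against 0.272 FPKM) and 3 (0.162 against 0.196 FPKM). Nothing is read from this change of rank, as Adamts8 was chosen on this comparison. Other ranks differed between the groups too: Adamts10 was number 2 in knockout and number 4 in vehicle muscle, Adamts9 number 5 in knockout and number 2 in vehicle muscle, and Adamts4 number 9 in knockout and number 6 in vehicle muscle.

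Summed over all 19 listed ADAMTS proteases, the level was 13.4, 26.8 and 26.4 FPKM in knockout replicates 1, 2 and 3, against 24.7, 29.1 and 14.3 FPKM in vehicle replicates 1, 2 and 3. The sums overlapped. The shares of single genes are given as a description, and nothing is read from that of Adamts8, which was chosen on this comparison. Adamts8 supplied 3.35%, 10.4% and 9.31% of the sum in knockout and 1.10%, 0.68% and 1.37% in vehicle replicates 1, 2 and 3. Adamts1 supplied 43.8%, 43.4% and 46.2% in knockout and 68.5%, 62.3% and 56.4% in vehicle replicates 1, 2 and 3. The shares of Adamts2, Adamts5, Adamts10 and Adamts15 were also all higher in knockout than in vehicle libraries. The gap was narrow for Adamts2, at 5.235% in knockout replicate 3 and 5.068% in vehicle replicate 3. In CPM the groups of Adamts2, Adamts5, Adamts10 and Adamts1 overlapped, so nothing is read from the number of shares set apart. Shares of a sum are tied to each other, so a larger share of one gene lowers those of the rest.

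**Figure D3:**
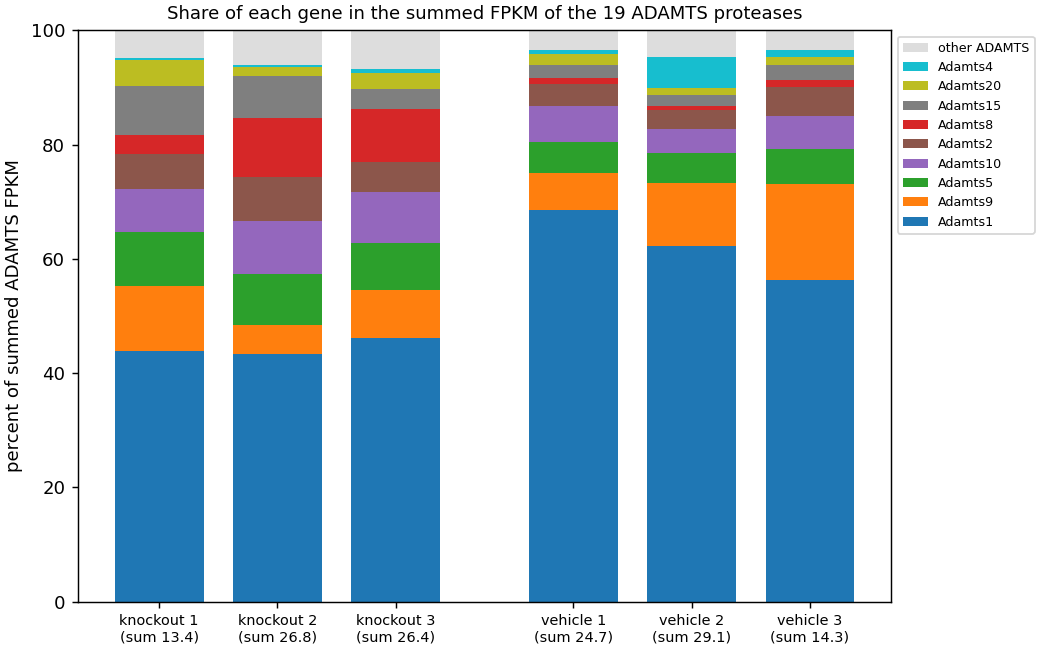
Percent of the summed FPKM of the 19 ADAMTS proteases (vertical axis) supplied by each gene in the 3 knockout and 3 vehicle libraries, with the sum in FPKM under each bar. The Adamts8 segment spans 3.35% to 10.4% in knockout and 0.68% to 1.37% in vehicle libraries, and the Adamts1 segment 43.4% to 46.2% in knockout and 56.4% to 68.5% in vehicle libraries.

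Markers of other cell types varied across the same libraries. The 8 macrophage markers, among them the receptor Csf1r and the complement genes C1qa, C1qb and C1qc, summed to 45.6, 142.5 and 132.2 CPM in knockout replicates 1, 2 and 3, against 63.95, 48.97 and 37.1 CPM in vehicle replicates 1, 2 and 3, and 8 of 8 had a higher estimate in knockout. Knockout replicates 2 and 3, the libraries with most Adamts8, were thus also highest in macrophage markers. They were likewise highest in the fibroblast markers given below and, for replicate 3 narrowly, in the slow-fibre markers given above. Knockout replicate 1 had fewer macrophage markers than vehicle replicates 1 and 2 and more Adamts8 than either. The 8 fibroblast and fibro-adipogenic markers, such as Pdgfra and Dcn, summed to 532.2, 1408 and 1051 CPM in knockout and 707.3, 743.1 and 568.7 CPM in vehicle replicates 1, 2 and 3, and 8 of 8 had a higher estimate. The 8 endothelial markers ranged from 285.3 to 321.1 CPM in knockout and from 233.8 to 330.0 CPM in vehicle libraries, with 6 of 8 higher in estimate. None of the markers of these lists was at 0, and 0 passed an adjusted p below 0.05. The part of these cells, and of the slow-fibre markers given above, in the protease values was not tested.

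The sums of the other marker lists overlapped between the groups, as did those of the lists given above. Adipocyte markers summed to between 253 and 681.2 CPM in knockout and between 220.1 and 303.2 CPM in vehicle libraries, with 5 of 5 higher in estimate, and knockout replicate 2 was highest. Smooth muscle and pericyte markers, Des among them, summed to between 2867 and 3197 CPM in knockout and between 3058 and 3956 CPM in vehicle libraries, with 3 of 8 higher in estimate. The share of Des in that sum is not given here. For tenocyte markers the ranges were 117.5 to 239.9 CPM in knockout and 172.9 to 217.1 CPM in vehicle libraries, and 3 of 5 estimates were higher. Satellite cell markers ranged from 135.1 to 200.5 CPM in knockout and from 167 to 206.5 CPM in vehicle libraries, with 3 of 5 higher in estimate. Most of these sums came from Sdc4, at 126.9 to 186.5 CPM in knockout and 156.7 to 196.5 CPM in vehicle libraries. They therefore say little about the rest of that list. Schwann cell markers ranged from 64.4 to 104.9 CPM in knockout and from 89.8 to 168 CPM in vehicle libraries, with 0 of 5 higher in estimate and vehicle replicate 2 highest. Cardiac markers ranged from 158.2 to 613.1 CPM in knockout and from 15.3 to 230.9 CPM in vehicle libraries, with 3 of 3 tested markers higher in estimate and Nppa at 0 in every library.

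**Figure D4:**
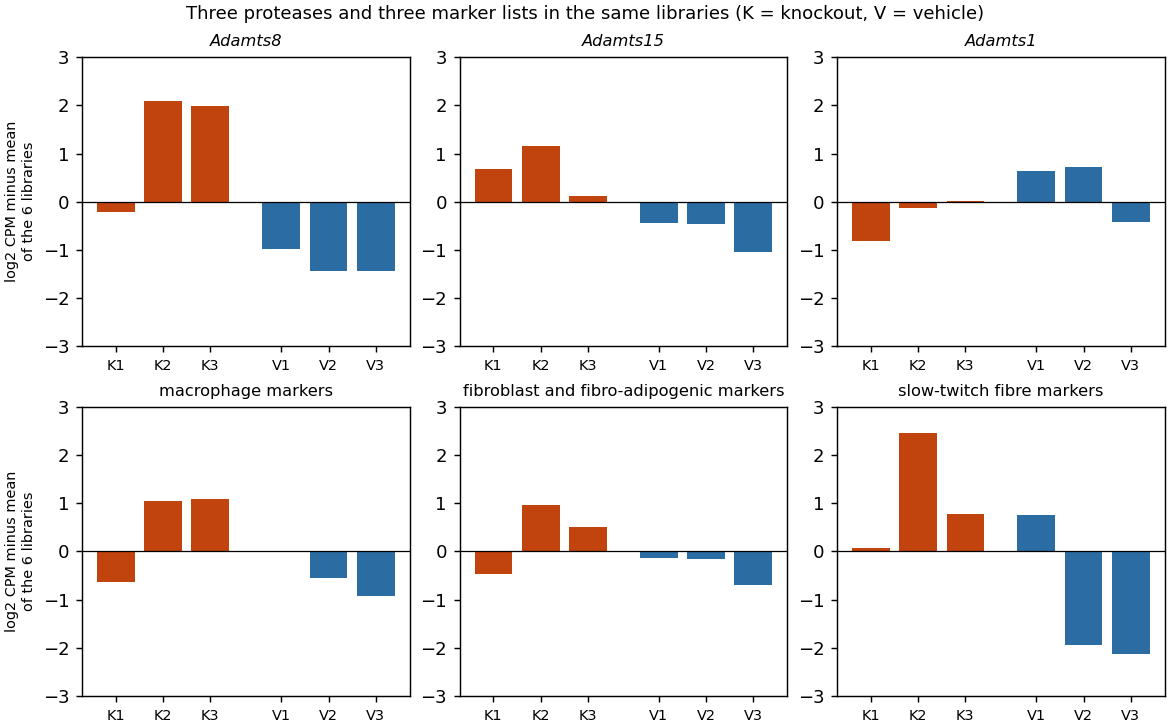
Log2 CPM minus the mean of the 6 libraries (vertical axes) for Adamts8, Adamts15 and Adamts1, and the mean of the same quantity over macrophage, fibroblast and slow-fibre markers, in knockout (K) and vehicle (V) replicates 1 to 3. Macrophage markers are at -0.63, 1.04 and 1.09 in knockout and at -0.016, -0.56 and -0.94 in vehicle replicates 1, 2 and 3, and slow-fibre markers at 0.075, 2.45 and 0.78 in knockout and 0.76, -1.94 and -2.13 in vehicle replicates 1, 2 and 3.

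Over the 6 libraries the log2 CPM of Adamts2, Adamts10, Adamts5 and Adamts15 ran most closely with that of Adamts8 among its relatives, with Pearson r of 0.86, 0.84, 0.81 and 0.76 as descriptions. Of the 11253 genes compared, 4.11%, 5.42%, 7.06% and 10.6% had a higher r with Adamts8 than these. Adamts20 was at 0.43, Adamts1 at -0.23, Adamts4 at -0.47 and Adamts9 at -0.63. All these values share the libraries, their scaling and the group difference on which Adamts8 was chosen.

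The genes whose pattern was most like that of Adamts8 were Gbp3, an interferon-induced GTPase, H2-T24, a non-classical class I histocompatibility gene, Rarg, a retinoic acid receptor, Ms4a6c, a membrane protein of the MS4A family, and Xaf1, an interferon-induced gene, with r from 0.988 to 0.996 over the 6 libraries. Gbp3 had 5.58, 15.1 and 16.8 CPM in knockout replicates 1, 2 and 3 and 3.93, 3.10 and 2.71 CPM in vehicle replicates 1, 2 and 3. Rarg spanned less, with 4.595, 6.71 and 6.76 CPM in knockout and 3.93, 3.86 and 3.99 CPM in vehicle replicates 1, 2 and 3. In each of the 5 genes knockout replicate 1 was the lowest of its group and still above all vehicle libraries, as for Adamts8. The 5 genes were picked by r with Adamts8 over these same libraries, so this shared order largely follows from the choice. Reads of Gbp3 can be split with its close paralogs.

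Of the 10 other ADAMTS proteases listed, 6 passed the filter, and Adamts13, Adamts16, Adamts17 and Adamts19 did not. With edgeR 0 of the 6 had an adjusted p below 0.05, and 5 estimates were higher in knockout (median log2 fold change 0.68, against 0.021 over all tested genes). Adamts14, which like Adamts2 trims procollagen, had 33, 84 and 84 reads in knockout and 22, 41 and 32 reads in vehicle replicates 1, 2 and 3. Knockout replicate 1 lay inside the vehicle range, and the log2 fold change was 1.09 (SE 0.44; edgeR adjusted p = 0.645). Adamts7, a protease of injured arteries, was at 0.85 (SE 0.64; edgeR adjusted p = 0.792), with 1.62 without vehicle replicate 1 and 0.52 without vehicle replicate 3. Adamts6 was at 0.83 (SE 0.59; edgeR adjusted p = 0.779), and at 0.42 without vehicle replicate 3. Adamts12, the most abundant of the 6 at 0.401 FPKM, was highest in vehicle replicate 2, with 65, 61 and 126 reads in knockout and 65, 178 and 39 reads in vehicle replicates 1, 2 and 3. Its log2 fold change was -0.17 (SE 0.53; edgeR adjusted p = 0.962), and 0.63 without vehicle replicate 2.

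ADAMTS-like proteins share the non-catalytic modules and lack the protease domain. All 7 passed the filter, 0 had an adjusted p below 0.05 with edgeR, and 6 estimates were higher in knockout (median 0.42). Adamtsl2, which binds fibrillin and is mutated in human geleophysic dysplasia, had 40.0, 39.6 and 48.1 CPM in knockout replicates 1, 2 and 3, against 26.2, 25.2 and 28.9 CPM in vehicle replicates 1, 2 and 3. The groups did not overlap, and the log2 fold change was 0.67 (SE 0.16; edgeR adjusted p = 0.513). Of all tested genes 5.83% lay wholly above the vehicle libraries in this way and 6.48% wholly below. Adamtsl4, linked to fibrillin of the eye's lens zonule and the highest of the list per length, at 7.73 FPKM, had 30.33, 50.2 and 39.7 CPM in knockout and 30.29, 19.6 and 20.4 CPM in vehicle replicates 1, 2 and 3, a log2 fold change of 0.78 (SE 0.24; edgeR adjusted p = 0.604). Its groups were set apart only by the narrow gap between knockout replicate 1 and vehicle replicate 1. Adamtsl5 was at 0.42 (SE 0.32; edgeR adjusted p = 0.789), with 0.88 without vehicle replicate 1 and 0.22 without knockout replicate 2.

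Among the proteoglycan substrates and their hyaluronan partners, 6 of 11 listed genes passed the filter, 3 with a higher and 3 with a lower estimate (median -0.15), and 0 passed an adjusted p below 0.05 with edgeR. Acan and Bcan, which encode aggrecan and brevican, were at or under 3 reads in every library and were not tested. The hyaluronan synthase gene Has1 had 5, 18 and 12 reads in knockout and 6, 151 and 9 reads in vehicle replicates 1, 2 and 3. Like Adamts4, it stood out in vehicle replicate 2 alone. Its log2 fold change of -2.20 (SE 1.17; edgeR adjusted p = 0.715) became 0.62 without that library. The synthase Has2 was at -0.44 (SE 0.39; edgeR adjusted p = 0.818). Its knockout libraries lay wholly below the vehicle libraries, as for 6.48% of all tested genes. Cd44, the hyaluronan receptor and the most abundant of the list per length, was at -0.35 (SE 0.44; edgeR adjusted p = 0.882), and at 0.16 without vehicle replicate 2.

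Of 16 collagens, fibrillins and other matrix substrates, 13 passed the filter, 10 with a higher and 3 with a lower estimate (median 0.61), and 0 had an adjusted p below 0.05 with edgeR. Fbn1, the fibrillin to which Adamts10 binds, had 31.9, 86.6 and 83.9 CPM in knockout and 40.6, 40.4 and 19.4 CPM in vehicle replicates 1, 2 and 3. As with Adamts10, knockout replicates 2 and 3 were high and replicate 1 was within the vehicle range, and the log2 fold change was 1.01 (SE 0.42; edgeR adjusted p = 0.664). Col3a1, a chain of the procollagens trimmed by Adamts2, was at 1.10 (SE 0.49; edgeR adjusted p = 0.674) and ran from 101.3 to 389.8 CPM in knockout and from 67.2 to 145.7 CPM in vehicle libraries; its estimate was 0.67 without knockout replicate 2. Thbs1, thrombospondin 1, had 16.7, 21.5 and 42.5 CPM in knockout and 44.5, 102.0 and 32.6 CPM in vehicle replicates 1, 2 and 3, a log2 fold change of -1.15 (SE 0.48; edgeR adjusted p = 0.664), and -0.53 without vehicle replicate 2. Dcn, decorin, was the most abundant per length at 189.8 FPKM, with a log2 fold change of 0.23 (SE 0.28; edgeR adjusted p = 0.876) that was -0.060 without knockout replicate 2.

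Of 16 inhibitors, activating convertases and clearance or attachment genes, 15 passed the filter, 13 with a higher and 2 with a lower estimate (median 0.56), and 0 had an adjusted p below 0.05 with edgeR. Timp4, a tissue inhibitor of metalloproteinases, had 40.45, 69.9 and 39.96 CPM in knockout and 35.1, 30.4 and 32.8 CPM in vehicle replicates 1, 2 and 3. These groups did not overlap, as for 5.83% of all tested genes in that direction. The log2 fold change was 0.61 (SE 0.23; edgeR adjusted p = 0.643) and 0.30 without knockout replicate 2. Timp1, another inhibitor, had 25, 150 and 140 reads in knockout and 33, 56 and 7 reads in vehicle replicates 1, 2 and 3, a log2 fold change of 1.69 (SE 0.78; edgeR adjusted p = 0.683). The convertase Pcsk5 was at 0.78 (SE 0.39; edgeR adjusted p = 0.695). Sdc4, a cell-surface proteoglycan that can hold ADAMTS proteases at the membrane, was the highest per length at 65.3 FPKM, with a log2 fold change of -0.24 (SE 0.20; edgeR adjusted p = 0.812) that was -0.41 without knockout replicate 2 and -0.13 without knockout replicate 1.

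In the related metalloproteinase families 0 genes had an adjusted p below 0.05 with edgeR. Of 13 matrix metalloproteinases 10 passed the filter, 8 with a higher estimate (median 0.25). Mmp19 was at 0.69 (SE 0.39; edgeR adjusted p = 0.729), and at 0.19 without knockout replicate 2. Mmp14, which is anchored in the membrane, was at 0.40 (SE 0.29; edgeR adjusted p = 0.783), with 0.64 without knockout replicate 1 and 0.17 without knockout replicate 2. Mmp11 was at 0.41 (SE 0.33; edgeR adjusted p = 0.798), and its groups did not overlap. Mmp2, a gelatinase and the most abundant of them at 14.6 FPKM, was at 0.19 (SE 0.35; edgeR adjusted p = 0.929), and at -0.12 without knockout replicate 2. Of 10 genes of the membrane-bound ADAM family 9 passed, 7 with a higher estimate (median 0.10). Adam17, which sheds cytokines such as tumour necrosis factor, had 21.66, 25.1 and 25.8 CPM in knockout and 21.58, 18.1 and 14.1 CPM in vehicle replicates 1, 2 and 3, a log2 fold change of 0.43 (SE 0.19; edgeR adjusted p = 0.666), and 0.28 without vehicle replicate 3. Adam33 was at 0.60 (SE 0.33; edgeR adjusted p = 0.717), and at 0.22 without knockout replicate 2, and Adam22 was at 0.42 (SE 0.27; edgeR adjusted p = 0.752). The groups did not overlap for Adam22 and, by a narrow gap, for Adam17. Adam9 was the most abundant ADAM gene at 19.3 FPKM and was at -0.23 (SE 0.19; edgeR adjusted p = 0.808), and at -0.062 without knockout replicate 2.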

How the data were processed

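Polyadenylated RNA of 6 gastrocnemius muscles, 1 library per mouse, was sequenced after TruSeq Stranded mRNA preparation, per the labels' protocols. The authors deposited a read count per gene and library; the submitters' processing notes name the mm10 build, bcl2fastq, STAR 2.6.1c, and featureCounts (Subread 1.5.1). Neither strand setting nor annotation release is given in the sources used, which leaves overlapping and antisense genes uncertain. Each deposited FPKM was its count over the column total and over the listed length plus 1 base. GENCODE M21 gave strands; 8 of the 9 protease genes had the same start and end there.

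Counts were fitted in R 4.3.3 with edgeR 4.0.16 (filterByExpr with minimum count 10 and minimum total 15, TMM, robust quasi-likelihood, two-sided), with Benjamini-Hochberg adjustment over 15583 genes. The common biological coefficient of variation was 0.27. SEs came from the F statistic. A count of 3, taken as the floor, was 0.0783 to 0.0929 CPM. Patterns were compared by Pearson r of log2 CPM (prior count 2) over named protein-coding genes of mean CPM 1 or more. The procedure was also run on simulated counts with planted changes, drawn independently for each gene. Those lack the shared differences between libraries seen here, so the run does not vouch for these results. Alternatives used DESeq2 1.42.0 and limma 3.58.1, other scalings and filters, FPKM with pseudocounts of 0.1 and 1, and each library left out.

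The genes and lists were chosen with earlier results of these data known. Named list genes are the 3 of smallest p and the most abundant of each list. The markers and the nearby gene Zbtb44 were added for context, Zbtb44 after its values were seen. No 2 libraries agreed within sampling noise.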

Additional observations from a re-analysis of the deposited data

How the results depend on the processing

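The count of genes with an adjusted p below 0.05, 0 in edgeR, was 109 with the DESeq2 Wald test, 29 with no low-count filter, 4 with DESeq2 size factors in edgeR and 4 with limma-voom and sample quality weights, and it was 7 at an adjusted p below 0.1. Leaving out 1 library gave between 0 and 24 genes, 24 without knockout replicate 1, 6 without knockout replicate 2 and 0 without any other. Every one of the 9 proteases kept its sign in all alternatives run, which reuse the same libraries. For Adamts8, which was chosen on them, the kept sign is no further evidence. On log2(FPKM + 1), where the pseudocount shrinks low genes by construction, the estimates were 1.13 for Adamts8, 0.63 for Adamts15 and -0.46 for Adamts4. With 1 library left out they ran from 1.06 to 1.57 for Adamts15, from -0.95 to -0.45 for Adamts1, from 0.31 to 0.68 for Adamts5, from 0.36 to 0.83 for Adamts10, from 0.26 to 0.76 for Adamts2, from 0.42 to 0.997 for Adamts20, from -0.80 to -0.36 for Adamts9 and from -3.30 to -0.76 for Adamts4. Those for Adamts5, Adamts10 and Adamts20 were lowest without vehicle replicate 3. Of the list genes, Adamts12 (-0.56 to 0.63 with 1 library left out) turned to 0.074 with limma-voom, 0.056 with quality weights, 0.075 on log2(FPKM + 0.1) and 0.63 without vehicle replicate 2. Without that library Has1 turned to 0.62 (its lowest was -2.72) and Cd44 to 0.16 (lowest -0.72). Without knockout replicate 2 Dcn turned to -0.060 (highest 0.48) and Mmp2 to -0.12 (highest 0.51). The cause was not tested. Ordered by median FPKM, Adamts8 was number 8 in place of 6, with Adamts15 at 6 and Adamts20 at 7; by CPM per kilobase the order was as by mean FPKM. Adamts4 did not pass the filter of 1 CPM in 3 libraries and has no value there. No paired analysis was possible because the sample numbers are not shared between the groups.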

Other observations

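Adam8, a membrane-bound protease of white blood cells, was chosen after its values were seen because it resembled Adamts4 and Has1 in standing out in vehicle replicate 2. It had 36, 52 and 57 reads in knockout replicates 1, 2 and 3, against 26, 231 and 12 reads in vehicle replicates 1, 2 and 3. Its log2 fold change was -0.87 (SE 0.92; edgeR adjusted p = 0.859).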
